A study of Sus scrofa with 14 samples.

Results

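The 10 genes described here belong to the fat-storing and hormone-secreting programme of adipocytes and were followed through the porcine mammary gland: 2 secreted adipokines (ADIPOQ, LEP), 3 lipid droplet proteins (PLIN1, PLIN4, CIDEC), a lipase (LIPE), the last enzyme of triglyceride synthesis (DGAT2), the nuclear receptor PPARG, and 2 proteins of fatty acid supply (LPL, CD36). They were chosen by symbol from the gene names in the deposited matrices, and all 10 were present, among 30071 gene identifiers of which 16607 carried a symbol. The libraries came from mammary glands of multiparous sows in the second breeding cycle at 5 stages, with no genetic or drug treatment: day 90 of gestation (G90), day 0 and day 20 of lactation (L0, L20), and 2 and 7 days after natural involution began (PI2, PI7). Nuclei were isolated from snap-frozen gland, with 2 libraries from separate sows at each stage. In addition there were 1 spatial section at each of G90 and PI2, and 1 library of cells taken from milk at each of L0 and L20, which the labels also call mammary gland. Each section and each milk stage was therefore a single sample with no replicate.

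White adipocytes keep triglyceride in a single large droplet. Lipoprotein lipase (LPL) releases fatty acids from circulating lipoproteins, CD36 takes them up, DGAT2 esterifies them, the perilipins PLIN1 and PLIN4 and the droplet-fusion protein CIDEC coat and enlarge the droplet, hormone-sensitive lipase (LIPE) empties it, and PPARG drives transcription of most of these genes. In the mammary gland the secretory epithelium makes its own triglyceride for milk fat and shares part of this machinery, so that these genes need not mark the same cells.

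The sequences just before the members' annotated starts are shown for 4 genes: ADIPOQ and PLIN1, whose levels in adipocyte-gated nuclei exceeded those of the compared classes by the widest margins, and LEP and CD36, whose levels in luminal epithelial nuclei are also followed over the stages. Each line gives the 250 bases before the RefSeq gene start in Sscrofa11.1, 5′ to 3′ on the strand of the gene, with capitals marking a motif match.
ADIPOQ: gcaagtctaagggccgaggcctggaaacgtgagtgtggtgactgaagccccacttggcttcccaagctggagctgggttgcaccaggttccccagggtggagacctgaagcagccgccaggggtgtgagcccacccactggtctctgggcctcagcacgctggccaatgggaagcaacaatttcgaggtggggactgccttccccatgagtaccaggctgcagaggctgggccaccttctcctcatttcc
PLIN1: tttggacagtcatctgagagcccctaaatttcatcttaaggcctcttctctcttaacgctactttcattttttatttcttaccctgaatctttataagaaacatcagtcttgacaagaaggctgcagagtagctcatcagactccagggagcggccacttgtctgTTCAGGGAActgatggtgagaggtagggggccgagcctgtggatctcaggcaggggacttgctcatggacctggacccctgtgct
LEP: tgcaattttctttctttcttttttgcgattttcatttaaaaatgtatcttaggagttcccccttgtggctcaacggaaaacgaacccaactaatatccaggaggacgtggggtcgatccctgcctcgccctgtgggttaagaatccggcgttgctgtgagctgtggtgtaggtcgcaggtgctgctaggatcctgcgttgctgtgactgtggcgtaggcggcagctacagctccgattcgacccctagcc
CD36: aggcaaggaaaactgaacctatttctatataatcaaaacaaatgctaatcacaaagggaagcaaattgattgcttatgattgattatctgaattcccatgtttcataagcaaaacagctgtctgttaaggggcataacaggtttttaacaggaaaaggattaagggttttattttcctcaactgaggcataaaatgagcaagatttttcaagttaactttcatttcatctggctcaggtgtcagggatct
The windows were chr13:124633656-124633905 on the plus strand for ADIPOQ, chr7:55250798-55251047 on the minus strand for PLIN1, chr18:20124072-20124321 on the minus strand for LEP and chr9:99782297-99782546 on the minus strand for CD36. All 4 lie outside the annotated gene, upstream of its first exon. GC content was 62.0%, 48.8%, 52.0% and 34.8% in the same order, and 77.2% in the window of DGAT2. Each of 4 motifs was searched on both strands in the windows of the 10 members and in 19556 windows in all. The latter are those of annotated protein-coding genes on assembled chromosomes, without windows that hold an undetermined base. The nuclear receptor element AGGTCA was found in 0 of 10 members and in 12.2% of all windows, and its direct repeat with a spacer of a single base, which contains it, in 0 of 10 and in 0.0256%. The C/EBP-type motif TTGCNNAA occurred in 1 of 10 members, against 8.22% of all windows. The STAT5-type motif TTCNNNGAA occurred in PLIN1 alone, 85 bases before the start (TTCAGGGAA), against 6.12% of all windows. These matches describe letters in a short window and were not set against any binding measurement.

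The annotated genes lie at chr13:124633906-124646237 (ADIPOQ), chr18:20106867-20124071 (LEP), chr7:55237517-55250797 (PLIN1), chr2:74318624-74331920 (PLIN4), chr13:66141836-66149801 (CIDEC), chr6:49543671-49560126 (LIPE), chr9:10032163-10066082 (DGAT2), chr13:68301566-68433951 (PPARG), chr14:4104761-4134964 (LPL) and chr9:99685748-99782296 (CD36).

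After removal of barcodes with under 300 genes or over 25% mitochondrial UMIs, 126833 nuclei were kept, 9332 to 18693 a gland, with 18700704 to 53161349 UMIs a gland and a median of 1382 to 2496 UMIs a nucleus. The milk libraries held 17571 (L0) and 14514 (L20) kept cells, and the sections 4721 (G90) and 2248 (PI2) spots. Pairs of gland or milk libraries shared 0.557% to 1.23% of the barcodes of the smaller library. Every barcode of the PI2 section was also in the G90 section, as both use the same fixed array positions. Nuclei were assigned to 11 classes by marker genes that did not include the members: a class was given where at least 3 of its markers were detected and at least 2 more than of any other class. Between 16.3% and 47.4% of the nuclei of a gland met no such rule and were left ungated. Replicate 2 of L20 stood apart from the other glands: it held 1263 luminal epithelial nuclei against 4136 to 14981 elsewhere, and 4256 fibroblast nuclei against 49 to 1663. Casein transcripts were 0.0106% of its UMIs, the lowest share of the glands, against 0.0721% in replicate 1 of L20. They were 1.06% and 0.774% at L0, and 0.0114% and 0.0197% at PI7. The part of that gland's few luminal nuclei in its low share was not tested. The main results for the members that rest on replicate 2 of L20 are given with and without it.

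Adipocyte-gated nuclei were rare. In all, 61 nuclei passed the gate, 38 of them from replicate 2 of L20, and 24 had exactly the minimum of 3 markers. Their share was 0.0731% ± 0.119 (SD, n = 4) of nuclei in the lactating glands and 0.0238% ± 0.0215 (SD, n = 6) in the others, a difference of 0.0493 percentage points (exact two-sided permutation test over 210 splits, p = 0.648). Without replicate 2 of L20 the difference was -0.00993 percentage points (exact permutation, p = 0.452). A further 376 nuclei had 3 or more adipocyte markers but not the required lead over another class, and 227 of these were from the same gland. The gate thus gave a small sample by a strict rule, and not every nucleus in it carried the members. ADIPOQ was seen in 32 of 38 such nuclei of replicate 2 of L20 and 2 of 4 of replicate 1. It was seen in 1 of 1 in replicate 1 of L0 and 2 of 2 in replicate 1 of PI2. In replicates 1 and 2 of PI7 it was seen in 2 of 7 and 5 of 5. The 4 such nuclei of replicate 1 of G90 together had 1 UMI of ADIPOQ, 1 of LPL and none of the other members.

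All 10 members had their highest pooled level, in UMIs per 1000000 UMIs of the class or library (CPM), in the adipocyte-gated nuclei, among the 11 classes, in the pool of all glands and in the pool without replicate 2 of L20. For LEP the latter rested on 3 UMIs, 66.6 CPM with an interval of 13.7 to 195 that includes its luminal level of 16.5. ADIPOQ, the insulin-sensitising adipokine, stood at 3025 CPM in these nuclei (95% exact Poisson interval 2817 to 3243, counting error only), and at 3909 without that gland. It was detected in 45 of 61 adipocyte-gated nuclei, 73.8% (exact binomial interval 60.9 to 84.2). The next class was the fibroblast-gated nuclei at 73.9 CPM, which dropped to 10.5 without replicate 2 of L20. In T and NK nuclei, a class that should lack the gene, ADIPOQ stood at 6.397 CPM and in luminal epithelial nuclei at 3.06. Without replicate 2 of L20 those levels were 3.17 (95% interval 1.58 to 5.68) and 1.91, and the pooled fibroblast level of 10.5 (8.78 to 12.5) was above both. Of its UMIs, 61 came from replicate 1 of PI7 (15.7 CPM) and 44 from replicate 1 of PI2 (19.0 CPM). Replicate 2 of L0 stood at 77.4 CPM from 1 nucleus, and the remaining glands in this pool lay between 0 and 4.68. A fibroblast excess in each gland was therefore not shown. Median depth was 3840 UMIs in adipocyte-gated, 1976 in fibroblast, 2514 in luminal and 1075 in T and NK nuclei.

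The droplet and lipolysis genes were also highest in adipocyte-gated nuclei, with different classes next in order. PLIN1, the perilipin that gates access of lipases to the droplet, stood at 813 CPM in adipocyte-gated nuclei, 21.2 in fibroblast nuclei and 7.93 in T and NK nuclei. The corresponding levels were 606, 18.9 and 4.61 for PLIN4 and 679, 21.2 and 17.9 for LIPE. CIDEC was seen in only 7 of the 61 nuclei, with 19 UMIs, a level of 72.8 CPM (95% interval 43.9 to 114), and 222 without replicate 2 of L20. The latter rested on 9 UMIs from 2 nuclei of replicate 2 of PI7 and 1 UMI from replicate 1 of PI2. Without replicate 2 of L20 the fibroblast levels were 7.96 CPM (PLIN1), 3.57 (PLIN4), 6.72 (LIPE) and 5.14 (CIDEC), and those of T and NK nuclei 6.92, 2.88, 16.4 and 2.88, so that LIPE was lower in fibroblasts than in T and NK nuclei. CIDEC in the pool of all glands stood at 6.37 CPM in fibroblast, 6.42 in blood endothelial and 7.25 in mural nuclei. DGAT2 stood at 717 CPM in adipocyte-gated nuclei. By gland it was 8391 in the 2 such nuclei of replicate 1 of PI2 and 4052 in the 5 of replicate 2 of PI7. Replicate 1 of L20 (4 nuclei) gave 545.3, replicate 1 of L0 (1) 516.3 and replicate 1 of PI7 (7) 367.5. The 38 nuclei of replicate 2 of L20 gave 199.2 and the 4 of replicate 1 of G90 gave 0. Leaving out replicate 2 of L20 raised the adipocyte-gated level to 3199 CPM for DGAT2, 1377 for PLIN1 and 777 for LIPE, and lowered that of PLIN4 to 378. In that pool 89 DGAT2 UMIs came from the 2 nuclei of replicate 1 of PI2 and 47 from the 5 of replicate 2 of PI7.

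PPARG, CD36 and LPL were spread over several classes besides adipocytes. PPARG stood at 2185 CPM in adipocyte-gated nuclei, 404 in mural, 286 in blood endothelial, 256 in macrophage, 209 in fibroblast, 101 in lymphatic endothelial, 32.0 in T and NK and 10.6 in luminal epithelial nuclei. CD36, which also serves as a scavenger receptor on capillary endothelium and macrophages, stood at 2220 CPM in adipocyte-gated nuclei, 897 in macrophage, 896 in blood endothelial, 809 in mural, 264 in luminal epithelial and 79.3 in T and NK nuclei. LPL stood at 809, 359, 306 and 153 CPM in adipocyte-gated, fibroblast, macrophage and luminal epithelial nuclei, against 30.2 in T and NK nuclei and 26.0 in blood endothelium. Without replicate 2 of L20, LPL was 489 CPM in adipocyte-gated (22 UMIs), 39.6 in fibroblast and 138 in macrophage nuclei, while the luminal level was 154. Macrophage CD36 was then 515 CPM, below blood endothelial (970) and mural nuclei (747), and macrophage PPARG was 138.

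With every nucleus thinned to 500 UMIs, the adipocyte-gated nuclei still had the highest share of nuclei with a UMI of each of these 3 genes. CD36 was seen in 50.8% of adipocyte-gated nuclei, 24.0% of mural, 23.1% of macrophage, 22.2% of blood endothelial, 9.37% of luminal epithelial and 3.03% of T and NK nuclei. PPARG was seen in 45.9% of adipocyte-gated and 16.9% of mural nuclei against 1.56% of T and NK nuclei. LPL was seen in 29.5% of adipocyte-gated, 9.73% of fibroblast and 6.09% of luminal epithelial nuclei against 1.34% of T and NK nuclei. Fibroblasts were above luminal nuclei through replicate 2 of L20: in the other glands LPL was seen in 1.89% of fibroblast, 6.13% of luminal, 1.102% of T and NK and 13.0% of adipocyte-gated nuclei (3 of 23). Before thinning, the CD36 shares were 75.4% of adipocyte-gated, 49.4% of macrophage, 36.2% of blood endothelial and 23.9% of luminal epithelial nuclei.

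LEP, the hormone that signals the size of fat stores, had few of its UMIs in the adipocyte gate. In all, 0.654% of its 4432 gland UMIs lay in adipocyte-gated nuclei, and 68.6% lay in luminal epithelial nuclei, which held 63.1% of all gland UMIs. The adipocyte-gated level was 111 CPM (95% interval 74.5 to 160, 29 UMIs) and the luminal level 16.2, against 4.09 in T and NK nuclei. After thinning, 0.823% of luminal and 0.130% of T and NK nuclei had a LEP UMI. The luminal shares of CD36 and LPL, 52.6% and 60.7%, were below that of all UMIs. In the 9 glands other than replicate 2 of L20, luminal nuclei held 70.3% of all UMIs, 76.4% of the LEP, 68.7% of the CD36 and 86.2% of the LPL UMIs. ADIPOQ had 7.12% of its UMIs there, 22.7% in fibroblast, 9.76% in adipocyte-gated and 56.3% in ungated nuclei. These shares without replicate 2 of L20 were 19.2%, 7.04%, 9.76% and 59.3%.

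**Figure D1:**
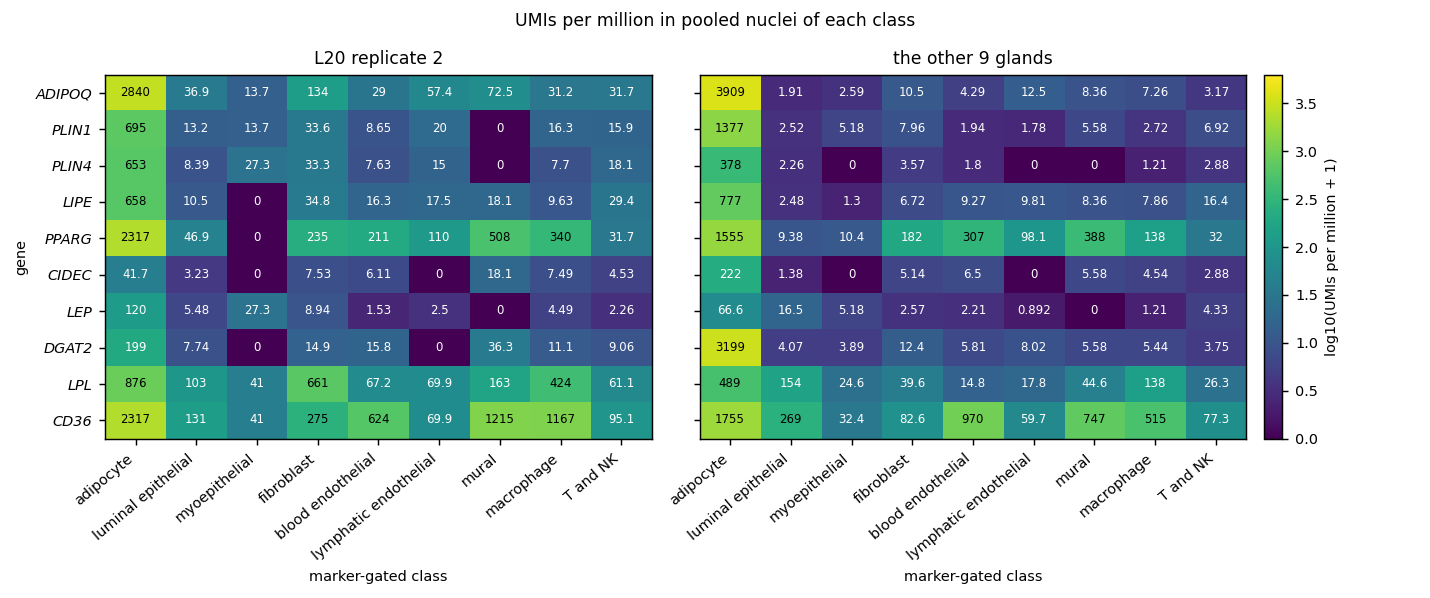
CPM of the 10 members in the pooled nuclei of marker-gated classes, as log10(CPM + 1). The panels show replicate 2 of L20 alone and the other glands together, and not every class is drawn. Every member has its highest value in the adipocyte column, and CD36, PPARG and LPL stay visible in endothelial, mural, macrophage, fibroblast or luminal columns.

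As a description, all nuclei, whether ungated or gated to any class before, were also gated with other members added to the adipocyte markers. LPL, CD36 and the gene whose level was read were left out of the added members. This gate was chosen after the data were seen. It took 481 nuclei for ADIPOQ, 371 of them from replicate 2 of L20, and these held 56.9% of all ADIPOQ UMIs of the glands. ADIPOQ stood at 2188 CPM in the nuclei of that gland and at 3251 in those of the other glands together (95% interval 3048 to 3463). Each other member had a gate of its own built in the same way, from 479 nuclei (PPARG) to 583 (LPL and CD36). These gates held 46.5% of the PLIN1, 42.8% of the PLIN4, 42.8% of the LIPE and 36.6% of the DGAT2 UMIs. They held 17.5% of PPARG, 10.8% of CIDEC, 7.60% of LEP, 6.58% of CD36 and 4.94% of LPL UMIs. For every member but DGAT2, most of these UMIs came from replicate 2 of L20: the other 9 glands gave 722 of the 981 DGAT2 UMIs in the gate, but 144 of the 1020 for PLIN4, 54 of the 337 for LEP and 33 of the 104 for CIDEC. In those 9 glands the gates held 53.2% of the ADIPOQ, 36.9% of the DGAT2, 31.4% of the PLIN1, 24.5% of the LIPE and 17.9% of the PLIN4 UMIs. The shares there were 5.20% for CIDEC, 4.02% for PPARG, 1.37% for LEP, 0.739% for CD36 and 0.614% for LPL. With and without that gland, ADIPOQ was the member with the largest share of its UMIs in its own gate and LPL the one with the smallest. These shares are over unlike sets of nuclei. DGAT2 was uneven between glands in this gate as well, at 138.4 CPM in replicate 2 of L20 and 2414 in the other glands together. Of the latter's 722 UMIs, 520 came from replicate 1 of PI2 (4608 CPM) and 137 from replicate 2 of PI7 (4008 CPM). The median of the 7 glands with 5 or more such nuclei was 287.8 CPM.

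Detection in the same nucleus was also read. Of 2017 nuclei with an ADIPOQ UMI, 25.1% also had PLIN1, 23.9% LIPE and 20.9% PLIN4, while PLIN1 was seen in 1.18% of all nuclei. LPL was seen in 37.5% of them against 15.6% of all nuclei, and CD36 in 46.6% against 21.2%. Of 2860 nuclei with a LEP UMI, 6.12% had ADIPOQ, against 1.59% of all nuclei, and 14.2% had LPL, against 15.6% of all. These shares were not matched for depth or gland. Of the 2017 nuclei, 1340 were from replicate 2 of L20, where 5.02% of all nuclei had PLIN1 and 4.99% had LIPE.

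The adipocyte-gated nuclei were then compared with 4 other classes, gland by gland, using sums of raw counts and edgeR's quasi-likelihood test with the gland as a block. Of the 10 glands, 3 had the required 5 adipocyte-gated nuclei: replicate 2 of L20 (38 nuclei, 215820 UMIs), replicate 1 of PI7 (7 nuclei, 10883 UMIs) and replicate 2 of PI7 (5 nuclei, 11599 UMIs). A gene was called at a Benjamini-Hochberg adjusted p under 0.05 over all 13417 genes tested and a log2 fold change beyond 1 in size. ADIPOQ stood at 2840, 4043 and 6725 CPM in the adipocyte-gated nuclei of these glands in that order, and PLIN1 at 695.0, 1195 and 1293. All 3 glands were thus high for both genes, in replicate 1 of PI7 through 2 of its 7 nuclei. LEP stood at 120.5 CPM (26 UMIs) in the first and had no UMI in the others. PLIN4 stood at 653.3, 0 and 603.5 CPM, and CIDEC at 41.7, 0 and 775.9.

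The members higher in adipocyte-gated nuclei than in each of the 4 classes, with and without replicate 2 of L20, were ADIPOQ, PLIN1, PLIN4, LIPE, DGAT2 and CIDEC. Without that gland the adipocyte side was 7 and 5 nuclei of the 2 PI7 glands. There PLIN4 had 0 and 7 UMIs, CIDEC 0 and 9, and LIPE 4 and 4. PLIN4 and CIDEC then rested on 2 nuclei each, all of replicate 2 of PI7. With all 3 glands, 9 of 10 members were called against luminal epithelial nuclei, all higher, where 15.9% of all genes were called and 4.05% called higher. ADIPOQ was higher by 8.64 ± 0.572 (log2 ± SE, adjusted p = 2.77e-15), PLIN1 by 7.06 ± 0.527, DGAT2 by 6.63 ± 0.640 and LIPE by 6.07 ± 0.546. PPARG was higher by 5.97 ± 0.474 and PLIN4 by 5.80 ± 0.568. CIDEC differed by 5.12 ± 0.794 (edgeR adjusted p = 4.99e-06), LEP by 3.19 ± 0.775 (0.00284) and CD36 by 2.63 ± 0.713 (0.00781). The exception was LPL at 1.16 ± 0.852 (adjusted p = 0.381). With the gland block left out, LEP (1.44, edgeR adjusted p = 0.390) and CD36 (2.04, 0.0775) were not called. The members' median difference was 5.88 and that of all genes -0.72.

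In blood endothelium, CD36 and PPARG were the members not called against the adipocyte-gated nuclei. Against blood endothelial nuclei 8 of 10 members were called, where 16.4% of all genes were called and 4.46% called higher. CD36 differed by 0.03 ± 0.709 (edgeR adjusted p = 0.988) and PPARG by 1.22 ± 0.489 (0.0809), and neither was called. PPARG was called with DESeq2 (adjusted p = 0.0211) and with the gland block left out. ADIPOQ was higher by 8.52 ± 0.600, PLIN1 by 7.60 ± 0.581, DGAT2 by 6.30 ± 0.664, PLIN4 by 6.25 ± 0.613 and LIPE by 4.38 ± 0.568. LPL, which endothelium displays on its surface but receives from neighbouring cells, was higher in adipocyte-gated nuclei by 3.73 ± 0.856 (edgeR adjusted p = 0.00138). CIDEC was higher by 3.18 ± 0.787 and LEP by 4.85 ± 0.847.

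Against fibroblast nuclei 9 of 10 members were called, where 10.4% of all genes were called and 2.5% called higher. ADIPOQ was higher by 6.91 ± 0.555, PLIN1 by 5.88 ± 0.515, DGAT2 by 5.44 ± 0.664, PLIN4 by 4.93 ± 0.547 and LIPE by 4.68 ± 0.534. LEP differed by 4.01 ± 0.765, CIDEC by 3.61 ± 0.772, CD36 by 3.35 ± 0.666 and PPARG by 2.36 ± 0.478 (edgeR adjusted p = 0.000566). LPL differed by 1.71 ± 0.803 (adjusted p = 0.170). Against macrophage nuclei 8 members were called, where 16.7% of all genes were called and 5.53% called higher, and the 2 exceptions were LPL at 0.65 ± 0.838 (edgeR adjusted p = 0.656) and CD36 at 0.55 ± 0.704 (0.650). ADIPOQ was higher by 7.86 ± 0.629, PLIN1 by 6.96 ± 0.577, PLIN4 by 6.62 ± 0.650, DGAT2 by 6.41 ± 0.700 and LEP by 5.03 ± 0.832. LIPE, CIDEC and PPARG were higher by 4.93 ± 0.612, 3.95 ± 0.801 and 2.43 ± 0.478. With these standard errors, equal levels of LPL and CD36 in adipocyte-gated nuclei and macrophages are not shown.

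The wider gate that adds other members was chosen after the data were seen and picks nuclei by the detection of other members, so its differences are a description with no test. For LPL they were 2.36 against luminal, 2.95 against fibroblast and 1.89 against macrophage nuclei (log2). For CD36 the difference from macrophages was 1.48, and for PPARG that from blood endothelium was 1.46. For LPL and CD36, replicate 2 of L20 gave 461 of the 583 nuclei in this gate.

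Of the called members, 4 depended on replicate 2 of L20 in some contrast. Without that gland LEP lost its call in all 4, CD36 against luminal nuclei (1.97, edgeR adjusted p = 0.186), LPL against endothelium (3.97, 0.0748) and PPARG against fibroblasts (1.82, 0.0555). CIDEC was lost against all 4 classes when 4 markers were required, which left 1 gland with enough adipocyte-gated nuclei, and without replicate 2 of PI7 against blood endothelium (1.72) and fibroblasts (2.08). With at least 15 nuclei per sum it was also lost against blood endothelium (1.96, edgeR adjusted p = 0.231), fibroblasts (2.41, 0.139) and macrophages (2.77, 0.0579).

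**Figure D2:**
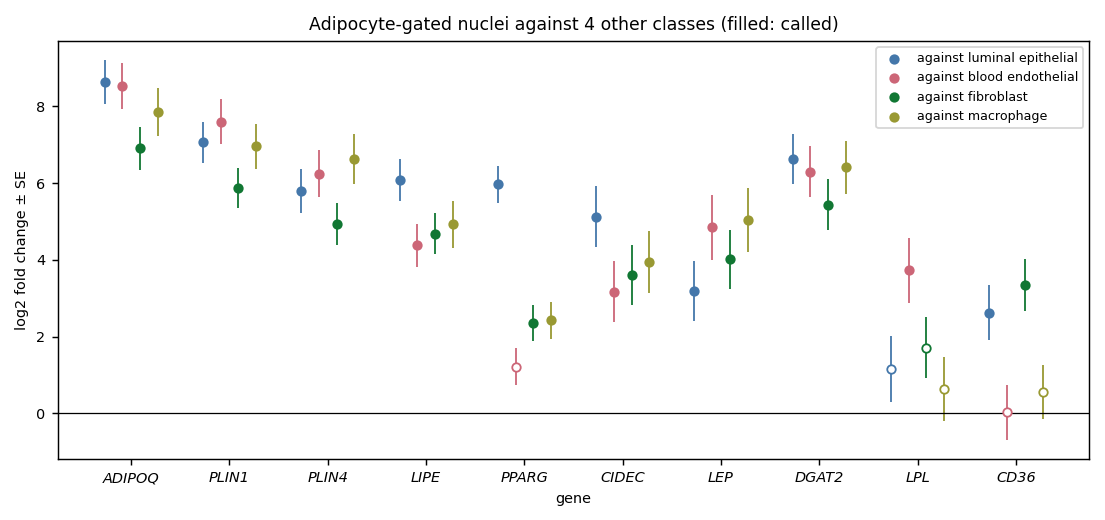
Log2 fold change ± SE of the 10 members in adipocyte-gated nuclei against luminal epithelial, blood endothelial, fibroblast and macrophage nuclei, with filled points for calls. ADIPOQ, PLIN1, PLIN4, LIPE, CIDEC and DGAT2 are filled in all 4 contrasts, whereas LPL is filled against blood endothelium only and CD36 against luminal and fibroblast nuclei.

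Other genes of lipid storage were read from a list of 58 in 6 groups, of which 47 were tested in these class contrasts. Their calls rest on the same 3 glands, of which replicate 2 of L20 gave 38 nuclei and 215820 UMIs. They are not given without that gland. Higher in adipocyte-gated nuclei were 14 against luminal, 15 against blood endothelial, 13 against fibroblast and 13 against macrophage nuclei, where 4.05%, 4.46%, 2.5% and 5.53% of all genes were called higher. In the same order 4, 8, 2 and 3 were lower, where 11.8%, 12%, 7.85% and 11.2% of all genes were called lower. Of 5 lipolysis genes tested, ABHD5, the co-activator of adipose triglyceride lipase, that lipase itself (PNPLA2) and PRKAR2B, a regulatory subunit of protein kinase A, were higher in all 4 contrasts, PNPLA2 by 1.72 to 2.78 (log2). Of 9 triglyceride synthesis genes, the phosphatidate phosphatase LPIN1 was higher by 3.71 to 5.09 and the acyl-CoA synthetase ACSL1 by 2.30 to 3.05 in all 4, whereas AGPAT2, which makes phosphatidic acid, was lower in all 4 (log2 -3.84 to -3.26). The adiponectin receptor ADIPOR2 (3.001 to 3.62) and the insulin-responsive glucose transporter SLC2A4 (2.27 to 3.76) were higher in all 4, as was the transcription factor CEBPA (1.93 to 5.03). Higher in 3 contrasts were EBF2, a transcription factor of the adipocyte lineage (3.81 to 4.67, not against fibroblasts), the insulin receptor INSR (1.07 to 2.06, not against fibroblasts), the fatty acid synthase FASN (1.35 to 2.07, not against luminal nuclei) and HILPDA, an inhibitor of adipose triglyceride lipase (2.08 to 2.71, not against macrophages). The remaining genes called higher were the caveolar CAV1 (3.28 against luminal and 3.23 against macrophage nuclei), the monoglyceride lipase MGLL (1.93 against luminal and 1.73 against fibroblast nuclei) and FABP4 (3.64 and 2.50 in the same order). In a single contrast these were SCD, NAMPT and NR1H3 against blood endothelium, the lipoprotein receptor VLDLR against fibroblasts and the transcription factor KLF15 against macrophages. Genes called lower besides AGPAT2 were the acyltransferase GPAM (-2.10), the co-activator PPARGC1A (-3.21) and the droplet protein PLIN3 against luminal nuclei, PLIN3 and LPIN2 (-2.18) against macrophages, and RARRES2 (-4.51), which encodes chemerin, against fibroblasts. Against blood endothelium, where 12% of all genes were called lower, 3 of 8 uptake genes were: the fatty acid binding proteins FABP4 (-2.70) and FABP5 (-4.33), and GPIHBP1, which anchors LPL to capillaries. Also lower in that contrast were CAV1 (-2.47), CAVIN1 (-3.55), MGLL (-1.89) and CDH13 (-5.52), the T-cadherin that binds adiponectin.

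In the whole gland, stage differences were first asked of lactation (L0 and L20) against the other stages. Sums over all kept nuclei of a gland mix cell types, so that fewer cells of a type and less RNA per cell cannot be told apart. ADIPOQ stood at 2.99 and 1.58 CPM (G90), 1.78 and 1.06 (L0), 6.29 and 159.6 (L20), 20.0 and 1.87 (PI2), and 16.4 and 11.8 (PI7). A single lactating gland, replicate 2 of L20, was high, and the other 3 overlapped with the remaining stages. That gland held 77.7% of all ADIPOQ UMIs and 50.6% to 66.1% of those of PLIN1, PLIN4, LIPE and PPARG. It was also the highest gland for CIDEC, at 8.28 CPM against 0.885 to 5.07 elsewhere, and for LPL, at 374.9 against 12.4 to 344.6.

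Among the droplet and lipolysis genes, PLIN4 was 1.66 and 0.715 CPM (G90), 4.81 and 4.69 (L0), 5.08 and 40.02 (L20), 5.85 and 2.03 (PI2), and 3.14 and 3.38 (PI7). The L0 pair lay close together and above the G90 pair. PLIN1 ranged from 1.28 to 12.03 and LIPE from 1.35 to 13.0 over the 9 glands other than replicate 2 of L20, where they stood at 43.4 and 43.6. PPARG stood at 270.2 there and between 11.3 and 91.5 elsewhere. DGAT2 was highest in replicate 1 of PI2, at 28.7 CPM, and lay between 2.00 and 18.4 in the other glands.

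LEP and CD36 followed other orders. LEP stood at 2.11 and 1.49 CPM (G90), 37.7 and 42.3 (L0), 17.1 and 12.6 (L20), 2.46 and 69.9 (PI2), and 3.06 and 1.72 (PI7). All 4 lactating glands were above the other glands except replicate 2 of PI2, which was the highest of all. CD36 stood at 31.0 and 104.6 CPM (G90), 1321 and 392.4 (L0), 126.6 and 593.1 (L20), 64.6 and 46.6 (PI2), and 264.7 and 203.2 (PI7). LPL stood at 157.5 and 344.6 (G90), 101.4 and 92.4 (L0), 27.0 and 374.9 (L20), 38.3 and 12.4 (PI2), and 44.2 and 41.6 (PI7). Both gestation glands were above all 4 involuting glands.

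**Figure D3:**
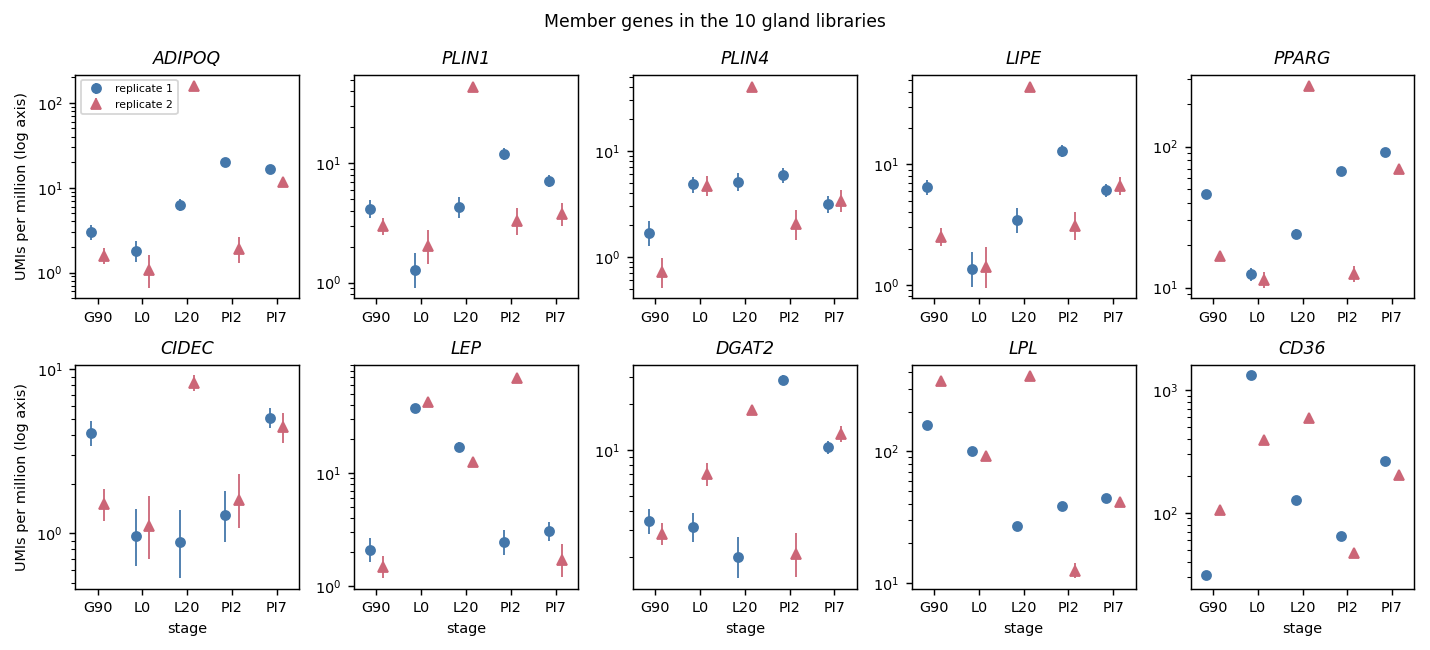
CPM (log axis) of each member in the 10 gland libraries by stage, with circles and triangles for replicates 1 and 2 and 95% exact Poisson intervals. Replicate 2 of L20 is the highest gland for 7 of the 10 members, while LEP peaks in replicate 2 of PI2, DGAT2 in replicate 1 of PI2 and CD36 in replicate 1 of L0.

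No member was called between lactation and the other stages with edgeR (0 of 10, and 0 of 22695 genes tested, 0%). At an unadjusted p under 0.05, 3 members passed, where 5.49% of all genes did. CD36 differed by 2.53 ± 0.509 (log2 ± SE, adjusted p = 0.391), with 608.3 ± 512 CPM (SD, n = 4) in lactation and 119.1 ± 94.3 (n = 6) otherwise. PLIN4 differed by 2.12 ± 0.505 (edgeR adjusted p = 0.605) and LEP by 2.36 ± 0.661 (0.735). DESeq2 called these 3 members (adjusted p = 0.00700 for PLIN4, 0.000746 for CD36 and 0.0370 for LEP) among 117 genes, 0.408% of those it tested, and edgeR without a filter on low counts called CD36, among 0.0975%. The other 7 gave 0.67 ± 0.710 for ADIPOQ, 1.08 ± 0.556 for LPL, 0.30 ± 0.546 for PLIN1, -0.04 ± 0.578 for LIPE, -0.08 ± 0.556 for PPARG, -0.17 ± 0.672 for DGAT2 and -0.24 ± 0.544 for CIDEC, all with edgeR adjusted p of 0.954 or more. For 0 of 10 members the 4 lactating glands did not overlap with the other 6, against 0.925% of all genes. The members' median was 0.48 and that of all genes -0.03.

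Between adjacent stages no member was called with edgeR either (0 of 22695 genes in each comparison). From G90 to L0, 3 members passed at an unadjusted p under 0.05, where 7.28% of genes did: LEP (4.89 ± 1.203, adjusted p = 0.322), CD36 (3.88 ± 0.883, 0.316) and PLIN4 (2.48 ± 0.834, 0.502). DESeq2 called LEP and CD36 (adjusted p = 0.000371 and 0.000659), among 1.32% of genes. So did edgeR without a filter (0.115% of genes) and in a fit of those stages alone (2.01%). From L0 to L20, 5 members passed that limit, where 12.8% of genes did: ADIPOQ (5.06 ± 1.31, edgeR adjusted p = 0.190), LIPE (3.31 ± 0.990, 0.217), PLIN1 (3.09 ± 0.916, 0.216), PPARG (2.86 ± 0.923, 0.240) and CD36 (-1.95 ± 0.815, 0.347). DESeq2 called ADIPOQ, LIPE, PLIN1 and PPARG, among 3.89% of genes, and edgeR without a filter ADIPOQ, among 0.937%. Without replicate 2 of L20 these 4 differences were 1.93 (ADIPOQ), 1.105 (LIPE), 1.17 (PLIN1) and 0.81 (PPARG), with edgeR adjusted p of 0.563 to 0.826. The CD36 difference was -2.96 without that gland and -0.86 without replicate 1 of L0.

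From L20 to PI2, 3 members had an unadjusted p under 0.05, where 3.6% of genes did: LPL (-2.46 ± 0.922), CD36 (-2.22 ± 0.823) and PLIN4 (-2.02 ± 0.813), each with an edgeR adjusted p of 0.825. These became -0.14, -1.21 and -0.41 without replicate 2 of L20. In this comparison 0 of 10 members were called by DESeq2 (0.0871% of genes) or without a filter (0.0105%). From PI2 to PI7, LEP was the single member under that limit (-4.40 ± 1.18, edgeR adjusted p = 0.998), where 2.04% of genes were. DESeq2 called LEP (adjusted p = 0.0226), among 0.0523% of genes. The edgeR difference without replicate 2 of PI2 was -0.39. Of the 58 listed lipid genes, 53 were tested in the whole gland and 0 were called with edgeR in any of these 5 comparisons, with 1 to 8 at an unadjusted p under 0.05.

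The same contrast was then taken within luminal epithelial nuclei. CD36 stood at 12.6 and 100.2 CPM (G90), 1385 and 392.2 (L0), 130.4 and 131.0 (L20), 27.2 and 36.9 (PI2), and 78.6 and 62.5 (PI7). The 4 lactating glands all lay above the other 6. PLIN4 did the same, from 3.64 to 8.39 CPM in lactation against 0.540 to 3.30 otherwise, but its pooled luminal level of 2.46 CPM was below that of T and NK nuclei (4.61), the class taken for background. Such separation was seen for 2 of 10 members, and for 1.77% of all genes tested in luminal nuclei. LEP stood at 38.5 and 42.4 CPM at L0, 17.3 and 5.48 at L20, and 0.978 to 2.24 elsewhere except in replicate 2 of PI2, at 79.6.

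By edgeR in luminal nuclei, 0 of 10 members were called, where 0.0102% of 19551 genes were, and 3 had an unadjusted p under 0.05, where 10.3% of genes did. CD36 differed by 2.88 ± 0.565 (edgeR adjusted p = 0.135), PLIN4 by 1.95 ± 0.399 (0.148) and LEP by 2.41 ± 0.829 (0.359). DESeq2 called all 3 (adjusted p = 5.9e-05 for CD36, 0.000587 for PLIN4 and 0.0415 for LEP), among 1.32% of genes, and edgeR without a filter called CD36 and PLIN4, among 0.508%. With replicate 2 of PI2 left out, edgeR called LEP (4.27, adjusted p = 0.0290), among 0.072% of genes. LPL differed by 0.37 ± 0.446 (edgeR adjusted p = 0.851) between lactation and the rest. Its luminal level was 199.4 and 361.2 CPM (G90), 103.6 and 94.2 (L0), 18.2 and 102.6 (L20), 41.7 and 12.5 (PI2), and 39.1 and 31.4 (PI7). Both gestation values were above all later ones.

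The remaining 6 members stood at 1.44 to 10.6 CPM in pooled luminal nuclei and at 3.07 to 32.0 in T and NK nuclei. As with PLIN4, none was clearly above that class, and DGAT2 was nearly level with it (4.19 and 4.35). T and NK nuclei had LIPE in all 9 glands measured (9.80 to 31.6 CPM). Whether luminal LIPE is background therefore cannot be read from that class. ADIPOQ was 0.554 to 6.91 CPM in 9 glands and 36.9 in replicate 2 of L20, and PPARG 4.40 to 20.7 and 46.9 in the same order. Their differences between lactation and the other stages were 0.54 ± 0.778 and 0.23 ± 0.477. DGAT2 differed by -0.02 ± 0.661, PLIN1 by 0.31 ± 0.482, LIPE by -0.33 ± 0.540 and CIDEC by -0.02 ± 0.519, with edgeR adjusted p of 0.881 or more for all 6. In the gland with 36.9 CPM of luminal ADIPOQ the adipocyte-gated nuclei were also most frequent, and their part in that value was not tested.

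Blood endothelial nuclei carried high CD36 and PPARG at each stage. CD36 stood at 45.9 and 657.2 CPM (G90), 1032 and 1722 (L0), 459.1 and 624.3 (L20), 541.8 and 1013 (PI2), and 1236 and 1658 (PI7). Replicate 1 of G90 was far below the other 9 glands, and the lactating glands overlapped with the rest. PPARG ranged from 165.1 to 758.8. Of 5 members tested, 0 were called and 0 passed an unadjusted p under 0.05 with edgeR, where 4.57% of genes did, and 0 were called by DESeq2 (0.0452% of genes) or without a filter (0.218%). The lactation difference was 0.26 ± 0.512 for CD36, -0.56 ± 0.419 for PPARG, 1.52 ± 0.762 for LPL, 0.59 ± 0.782 for LIPE and -0.07 ± 1.08 for CIDEC (edgeR adjusted p = 0.999 for each). The other 5 members had too few UMIs to be tested in this class.

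Macrophage nuclei, too, carried CD36 at each stage, from 157.8 to 1167 CPM, with LPL from 0 to 424.2 and PPARG from 65.3 to 340.1. Replicate 2 of L20 was the highest gland for all 3. These 3 members were the ones tested, and 0 were called by edgeR, by DESeq2 (0% of genes) or without a filter (0.072%). PPARG differed by 0.81 ± 0.353 (edgeR adjusted p = 0.738), where 6.6% of genes had an unadjusted p under 0.05, CD36 by 0.57 ± 0.431 and LPL by 1.14 ± 0.643.

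In fibroblast nuclei LPL stood at 64.6 and 85.4 CPM (G90), 60.9 and 123.9 (L0), 40.5 and 660.5 (L20), 24.6 and 18.01 (PI2), and 35.5 and 8.22 (PI7). The glands of involution were the 4 lowest. Against the other stages LPL differed in lactation by 2.41 ± 0.626 (edgeR adjusted p = 0.683) and CD36 by 1.87 ± 0.533 (0.763). Of 9 members tested 0 were called and 2 passed an unadjusted p under 0.05, where 5.31% of genes did, and DESeq2 called LPL alone of the members (2.46, adjusted p = 0.0278), among 0.0638% of genes. Without a filter edgeR called LPL, CD36 and ADIPOQ, among 0.371%. Without replicate 1 of L20, edgeR called both (LPL 2.83, adjusted p = 0.0184, and CD36 2.29, adjusted p = 0.0369), among 0.108% of genes, and without replicate 2 of L20 they differed by 0.83 and 0.76. ADIPOQ differed by 2.41 ± 1.19 and PLIN4 by 2.43 ± 1.16, and without the 49 fibroblast nuclei of replicate 2 of L0 by -1.98 and -1.62. PPARG (-0.46 ± 0.485), DGAT2 (0.96 ± 0.778), PLIN1 (1.43 ± 1.19), LEP (1.83 ± 0.968) and LIPE (0.0082 ± 8.39) were not called.

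**Figure D4:**
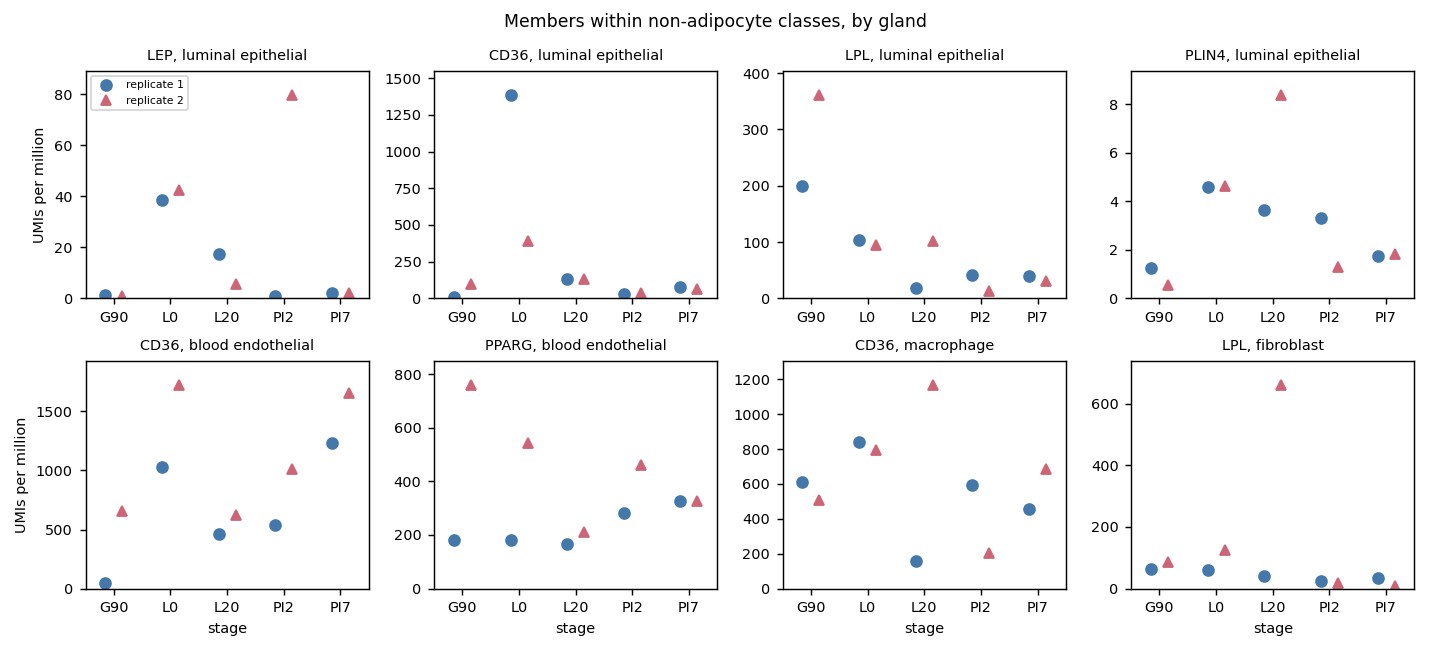
CPM (linear axis from 0) of 8 combinations of member and class in each gland by stage, with circles for replicate 1 and triangles for replicate 2. Luminal CD36 and PLIN4 are higher in the 4 lactating glands than in the other 6, PLIN4 at a pooled level below that of T and NK nuclei, luminal LEP also peaks in replicate 2 of PI2, and luminal LPL is highest at G90.

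The sections showed the same members by position in the tissue, in 1 sow a stage and without a test. A spot covers several cells, so that a gated spot is a region led by that class. No spot passed the adipocyte gate. In the G90 section the fibroblast-gated spots had 171 CPM of ADIPOQ (95% interval 157 to 186), 127 of PLIN4, 51.9 of PLIN1 and 40.2 of LIPE, against 8.28, 5.74, 2.59 and 8.63 in the luminal-gated spots. In the PI2 section the fibroblast-gated values were 43.9 (35.7 to 53.4), 9.22, 10.1 and 14.5. The luminal-gated values at PI2 were 3.12, 2.14, 2.96 and 8.55, so that all 4 genes had the higher CPM in fibroblast-gated spots of both sections, although the intervals for LIPE at PI2 overlapped (9.98 to 20.4 and 6.38 to 11.2). By the share of spots with a UMI, LIPE at PI2 turned, at 4.97% of fibroblast-gated and 9.42% of luminal-gated spots. ADIPOQ, PLIN4 and PLIN1 kept their order. The 583 fibroblast-gated spots there held 2276824 UMIs and the 499 luminal-gated spots 6085060.

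LPL was 298 CPM in luminal-gated and 238 in fibroblast-gated spots at G90, and 20.4 and 29.0 at PI2. Over whole sections it was 284.7 and 22.1, set beside 157.5 and 344.6 in the G90 nuclei and 38.3 and 12.4 in the PI2 nuclei. CD36 differed less between the sections, at 55.2 and 70.1 CPM, and LEP was under 1 CPM in both. CIDEC (2.34 and 6.48), DGAT2 (6.56 and 12.6) and PPARG (6.52 and 8.04) were the members with a higher value at PI2 besides CD36.

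Milk cells carried only some of the members, and no milk cell passed the adipocyte gate. ADIPOQ stood at 0.753 CPM at L0 and 0.768 at L20, PLIN1 at 0.333 and 0.279, and LEP at 0.259 and 0.140. LEP in the L0 gland nuclei was 37.7 and 42.3 CPM, but milk cells and nuclei differ in material and RNA pool and were not compared by a test. CD36 and LPL were high in the luminal epithelial cells of milk. CD36 stood at 429 CPM there at L0 (95% interval 423 to 434) and 524 at L20 (510 to 539), and LPL at 334 at both. With cells thinned to 500 UMIs, which weights them equally, CD36 was 385.9 and 230.6 and LPL 313.1 and 123.3, so that neither order of the stages is firm. In milk macrophages CD36 stood at 587 and 867 CPM, and LPL at 118 and 70.6. Thinned to 500 UMIs, macrophage CD36 was 221.8 and 437.8 and LPL 23.3 and 38.6, the latter from 6 and 27 UMIs, so that the order of the stages turned for LPL. T and NK cells, the comparison for free RNA, had 22.6 and 16.0 CPM of CD36.

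DGAT2 was highest in neutrophils among the gated classes of milk. Neutrophil-gated cells had 287 CPM at L0 (95% interval 277 to 298) and 222 at L20 (208 to 236), against 3.45 and 3.05 in luminal cells and 7.20 and 26.8 in macrophages. They held 3159 of 4021 DGAT2 UMIs at L0 and 1008 of 2096 at L20. After thinning to 500 UMIs a cell, 12.9% and 10.5% of neutrophils had a DGAT2 UMI, against 0.135% and 0.0894% of luminal cells. LIPE was also highest in neutrophils, at 18.5 and 15.8 CPM, while PPARG was highest in macrophages, at 127 and 59.9, and CIDEC stood at 9.22 and 14.1 in macrophages. Casein transcripts took 13.9% and 5.25% of milk UMIs and 0.0106% to 1.06% of those of the gland nuclei, and CPM values are shares of such totals.

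**Figure D5:**
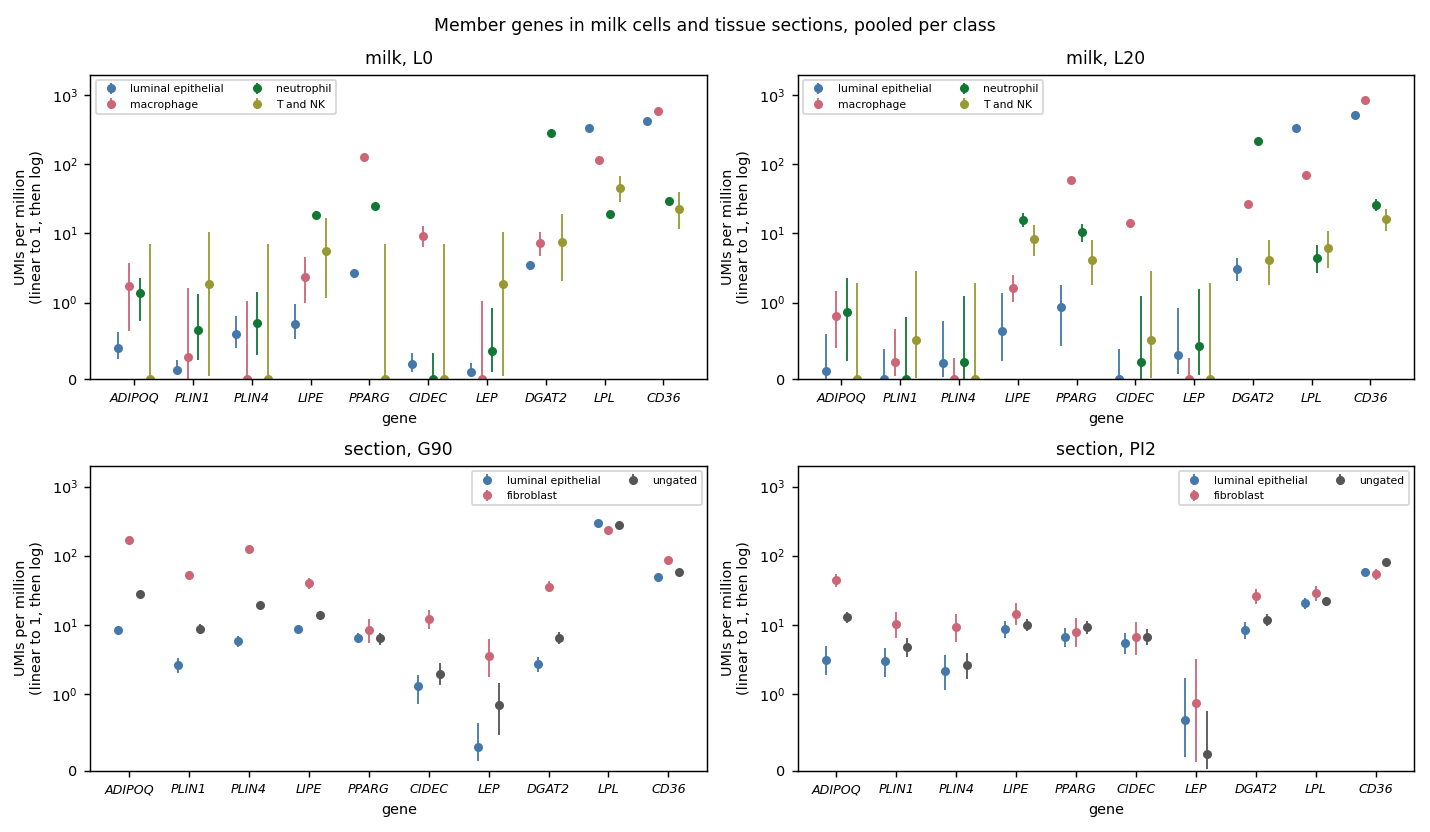
CPM (axis linear to 1, then log) of each member in the marker-gated classes of the 2 milk libraries and the 2 sections, with 95% exact Poisson intervals that cover counting error only. DGAT2 is led by neutrophils, CD36 and LPL by luminal cells or macrophages in milk, and ADIPOQ, PLIN1, PLIN4, LIPE and DGAT2, among the luminal, fibroblast and ungated spots drawn, by fibroblast-gated spots in both sections. Other gated classes had 1 to 24 spots and are not drawn.

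Across the 10 glands genes whose level closely followed ADIPOQ, among 13314, were SLN (Pearson r = 0.979 on log2(CPM + 1)), LVRN (0.964), COL6A6 (0.963) and ZSWIM2 (0.959). Spearman's rho was 0.903 to 0.964 for these 4, and r without replicate 2 of L20 was 0.90 to 0.958. Their ranks without that gland were 35 (SLN), 267 (LVRN), 261 (COL6A6) and 322 (ZSWIM2). Among the members PLIN1 (0.944, rank 16), PPARG (0.943, rank 18) and LIPE (0.941, rank 20) followed ADIPOQ, PLIN4 (0.797), DGAT2 (0.745) and CIDEC (0.708) less so, and CD36 (0.210), LPL (0.191) and LEP (-0.285) did not. With replicate 2 of L20 left out, r was 0.849 for PLIN1 (rank 819), 0.904 for PPARG (rank 284), 0.849 for LIPE (rank 827) and 0.394 for PLIN4. The points share their libraries and cell composition, and no p was computed.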

How the data were processed

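Gland nuclei and milk cells were sequenced with GEXSCOPE kits and counted with CeleScope, and sections with Space Ranger, against Sscrofa11.1. The deposited matrices hold the authors' raw UMI counts per gene and barcode, with no normalization. Here, all spots of the sections were kept, as were gland and milk barcodes in which 300 or more genes were seen and mitochondrial UMIs did not exceed 25%. Doublets were not called. Symbols came from the files for 15983 identifiers and from RefSeq for 624, and 13464 had none. The members and lists were chosen with earlier results of these data known. Named are all 10 members for lactation and for each class contrast, members with an unadjusted p under 0.05 between adjacent stages, called genes of the 58 listed lipid genes, and the 5 genes most like ADIPOQ, of which 1 is not reported here, nor is 1 upstream sequence. Counts were summed per gland, or per gland and class (at least 20 nuclei for stages, 5 for the adipocyte contrasts), and tested with edgeR 4.0.16 (quasi-likelihood, TMM, filtered on low counts) in R 4.3.3, with Benjamini-Hochberg adjustment over all genes. The stage fits held all 10 gland libraries and the class fits took the gland as a block. DESeq2 1.42.0, no filter, library totals, other gates, stricter filters, each gland left out, thinning and a replicate block were alternatives. The 2 replicates of a stage came from separate sows according to the study's methods, and replicate numbers did not pair the glands (correlations between stages from -0.53 to 0.38). Intervals are exact 95% Poisson or binomial and cover counting error only. The SE of an edgeR difference is its size divided by the square root of the test's F statistic. It is therefore not stable for differences near 0. The scripts were tested on simulated data.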

Additional observations from a re-analysis of the deposited data

Results flagged for a closer look

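Of 76 groups of 4 to 10 glands examined, 20 had a gland far from the rest of its group by Dixon's test at the 95% level. The nominal rate of 1 in 20 holds for independent normal values. These groups were raw CPM values and reused the same glands and genes, so the count was not set against chance. In 13 of the 20 the gland was replicate 2 of L20. In the whole lactating gland its CPM was 159.6 for ADIPOQ (the other 3 lactating glands 1.06 to 6.29), 43.4 for PLIN1 (1.28 to 4.28), 40.02 for PLIN4 (4.69 to 5.08), 43.57 for LIPE (1.36 to 3.45), 270.2 for PPARG (11.3 to 24.0) and 8.283 for CIDEC (0.885 to 1.11). Its share of adipocyte-gated nuclei was 0.2509%, against 0% to 0.0328% in the other lactating glands.

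Within luminal epithelial nuclei of lactation the same gland had 36.94 CPM of ADIPOQ (others 0.554 to 1.82), 13.23 of PLIN1 (1.02 to 2.48), 10.48 of LIPE (0.774 to 1.46), 46.94 of PPARG (5.53 to 6.34) and 3.226 of CIDEC (0.767 to 0.833). In its fibroblast nuclei LPL, the lipase that frees fatty acids from lipoproteins, stood at 660.5 CPM, against 40.5 to 123.9 in the other lactating glands. What these values share with the larger number of adipocyte and fibroblast nuclei in that gland was not tested.

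In the other 7 groups another gland stood apart. LEP in replicate 2 of PI2 was 69.89 CPM in the whole gland (the 5 others outside lactation 1.49 to 3.06) and 79.64 in luminal nuclei (0.978 to 2.24). Luminal LPL in replicate 1 of L20 was low at 18.21 CPM (other lactating glands 94.2 to 103.6). In blood endothelial nuclei, LIPE was 31.16 CPM in replicate 2 of PI2 (3.63 to 10.5), PPARG 543.8 in replicate 2 of L0 (165.1 to 211.2), and CIDEC 25.9 in replicate 2 of L0 (2.58 to 6.11) and 38.95 in replicate 2 of PI2 (2.59 to 12.6). Those 2 glands had 42 and 60 blood endothelial nuclei, the fewest of the 10.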

How the results depend on the processing

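Depth limits the class results: 61 adipocyte-gated nuclei came mostly from 1 gland, LEP had UMIs in such nuclei of 1 of the 3 glands tested, and 33.2% of all nuclei were ungated. Each stage had 2 glands, and milk and sections had 1 sample a stage.

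The count of members called moved with the tool and filter. In the whole gland, lactation against the other stages gave 0 with edgeR, 1 without a filter on low counts and 3 with DESeq2. L0 against G90 gave 2 without a filter, 2 with DESeq2 and 2 with a fit of those stages alone. L20 against L0 gave 1 and 4, and PI7 against PI2 gave 1 with DESeq2. Luminal nuclei gave 2 without a filter and 3 with DESeq2, and fibroblasts 3 and 1. Leaving out a gland gave 0 to 1 in luminal nuclei and 0 to 2 in fibroblasts. Over all genes, DESeq2 called 117 in lactation, 378 from G90 to L0 and 1118 from L0 to L20, and edgeR without a filter 28, 33 and 269, where edgeR with it called 0 in each. The cause was not tested. Under the replicate block 0 members were called in each stage comparison, with 2.57 for CD36 in the whole gland, and the one sign it turned was that of LIPE in fibroblasts (-0.35). The difference in the adipocyte share ranged from -0.00993 to 0.0737 percentage points when a gland was left out. In the class contrasts no count of members called moved by over 1.5 times, a limit that only a fall could pass. With a gland left out the counts were 7 to 9 against luminal and 6 to 9 against blood endothelial nuclei. They were 7 to 9 against fibroblast and 7 to 8 against macrophage nuclei.

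Signs also turned. With DESeq2 they were those of LIPE in the whole gland (0.0214) and DGAT2 in luminal nuclei (0.0278). Library totals turned LIPE in fibroblasts (-0.0466), and a gate of at least 2 markers turned CD36 against blood endothelium (-0.0524). A gate of at least 4 markers turned DGAT2 in luminal nuclei (0.0389) and, in fibroblasts, PLIN1 (-2.66), LIPE (-2.89) and ADIPOQ (-1.76).

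Leaving out 1 gland turned larger values too, such as ADIPOQ in the whole gland without replicate 2 of L20 (-0.90). The ranges were, for lactation in the whole gland, -0.90 to 1.48 for ADIPOQ, -0.66 to 0.70 for PLIN1, -1.15 to 0.39 for LIPE, -1.15 to 0.13 for CIDEC, -1.10 to 0.45 for PPARG, -1.07 to 0.76 for DGAT2 and -0.0795 to 1.52 for LPL. In luminal nuclei the ranges were -0.94 to 1.34 (ADIPOQ), -0.33 to 0.63 (PLIN1), -1.15 to 0.0341 (LIPE), -0.49 to 0.27 (CIDEC), -0.61 to 0.59 (PPARG), -0.85 to 0.69 (DGAT2) and -0.30 to 0.70 (LPL). In blood endothelial nuclei they were -0.0556 to 1.123 (LIPE), -0.84 to 0.75 (CIDEC), -0.0582 to 1.21 (CD36) and -0.40 to 3.25 (LPL). Fibroblasts gave -2.86 to 3.90 (PLIN1), -3.86 to 1.13 (LIPE), -1.62 to 4.58 (PLIN4), -1.98 to 5.02 (ADIPOQ) and -2.28 to 2.53 (LEP), and macrophages -0.44 to 0.96 (CD36) and -3.07 to 3.76 (LPL). In the class contrasts LEP ranged from -6.68 to 3.43 against luminal, -5.18 to 5.17 against blood endothelial, -5.52 to 4.23 against fibroblast and -4.02 to 5.35 against macrophage nuclei, the lowest each time without replicate 2 of L20, when no LEP UMI was left in the adipocyte-gated sums. CD36 against blood endothelium ranged from -0.58 to 0.37.

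In milk and sections, a gate of at least 4 markers gave DGAT2 in neutrophils 301.2 (L0) and 255.3 CPM (L20), CD36 in macrophages 629.6 and 892.2, and PPARG in macrophages 105.4 (L0). Thinning cells to 500 UMIs gave DGAT2 303.9 and 254.9 and LIPE 15.2 and 20.5 in neutrophils, CD36 385.9 and 230.6 and LPL 313.1 and 123.3 in luminal cells, CD36 221.8 and 437.8 and LPL 23.3 and 38.6 in macrophages, and PPARG 214.0 in L0 macrophages. Thinning weights cells equally, whereas sums weight them by depth. Thinning spots to 1000 UMIs gave ADIPOQ 323.9 (G90) and 85.5 (PI2) and PLIN1 100.3 (G90) in fibroblast-gated spots, and LPL 287.4 and 24.5 and CD36 81.8 (PI2) in luminal-gated spots.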
